A study of Drosophila melanogaster with 4 samples.

Results

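The genes described here are 5 detoxification enzymes of Drosophila melanogaster, measured in the heads of adult males that ate sodium valproate (NaVP) for 3 days. They comprise the glutathione transferases GstE12, GstT4 and GstD1, the glutamate-cysteine ligase modifier Gclm and the juvenile hormone epoxide hydrolase Jheh2. A spot was taken as a member where the probe annotation gives it a single gene symbol and that symbol, updated by NCBI gene ID, is one of these names. This gave 7 of the 13824 cDNA clones on the array and 5 of the 6775 named genes. Of the 7 clones, 5 (1 per gene) had a ratio on at least 3 of the 4 arrays and were tested among 1030 such clones. A second Jheh2 clone had ratios on 2 arrays and a second GstD1 clone on none. All flies were unmated Oregon-R wild-type males aged 10 to 11 days at the start, kept at 30 per vial. Treated flies received food with 0.33 mg/ml NaVP for 3 days, and control flies received normal food for the same 3 days. NaVP is an antiepileptic drug and mood stabiliser that also inhibits histone deacetylases. Each of the 4 two-colour arrays, the biological replicates, carried RNA of 1 pool of treated heads against 1 pool of control heads. NaVP RNA was in the dye Cy5 on arrays 1 and 2 and in Cy3 on arrays 3 and 4, the swap arrays.

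Glutathione is a small thiol that animals use to capture reactive compounds. Glutathione transferases attach it to electrophilic molecules, among them drugs, insecticides and products of lipid peroxidation, and the conjugates are then exported. Its synthesis starts with glutamate-cysteine ligase, made of a catalytic and a modifier subunit. Epoxide hydrolases act beside the transferases: they add water to epoxides, and those of the Jheh genes do so to juvenile hormone. In flies, transcripts of several of these enzymes are known to rise with xenobiotics through the transcription factor cnc (CncC) and its partner maf-S.

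The file lists 1 log ratio per spot that passed the authors' filters, taken here as log2, and from 1322 (array 2) to 5225 (array 1) of 27648 spots have one. The number of arrays, 4 at most per clone, limits the precision of every value below. No source states the log base, which channel was divided by which, or whether arrays 3 and 4 had been turned already, so each result is given under both readings. In the turned reading, the file holds Cy5 over Cy3 and the signs of arrays 3 and 4 are reversed to give NaVP over normal food. In the deposited reading, the file already holds NaVP over normal food. The turned reading goes with the order of the channel labels, which list Cy5 first. Every sample title names normal food before NaVP, swap arrays included. No source settles which reading holds. If the ratio on arrays 1 and 2 were normal food over NaVP, every sign below would be exchanged. Array medians lay at 1.01, 1.05, 0.54 and 0.24 on the log2 scale, so array medians were subtracted, and every log2 ratio below is relative to the array's median unless stated. Over the 453 clones on all 4 arrays, Pearson's r (across clones, as deposited) was 0.56 between arrays 1 and 2 and 0.35 between arrays 3 and 4. Between arrays of opposite orientation it ran from -0.12 to 0.28. Of 7 photoreceptor marker genes named on the array, 5 had a ratio on at least 3 arrays. The counts were 0 of 1 for neurons, 0 of 4 for glia and 0 of 1 for antenna. Head fat body had 0 of 5, but its markers were the yolk protein genes Yp1, Yp2 and Yp3 with fit and Lsp2, and all flies were males. A marker without a ratio thus does not show that its cell type was missing. Over the 6 clones of these 5 photoreceptor genes the means ran from -0.31 to 0.15 in the turned reading and from -0.36 to 0.34 in the deposited reading (smallest limma adjusted p = 0.737 and 0.244). The flight muscle actin gene Act88F also had ratios on 4 arrays, and its mean was 0.0022 ± 0.30 in the turned reading and 0.13 ± 0.26 in the deposited reading (SD, n = 4 each). The accessory gland gene Acp36DE had a single ratio, -0.98 on array 3, and the glial genes nrv2 and loco had ratios on 2 arrays and 1 array. The part of these cell types in the results was not tested.

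None of the 5 enzymes differed between NaVP and normal food heads past the threshold under either reading. In the turned reading, GstE12, GstT4 and Jheh2 had means above 0 and GstD1 and Gclm below 0, the means running from -0.24 for Gclm to 0.23 for GstE12. In the deposited reading 4 of the 5 were above 0, the lowest mean being -0.17 for GstE12 and the highest 0.27 for Jheh2. Of all tested clones, 47.6% had a mean above 0 in the turned reading and 60% in the deposited one. In limma with Benjamini-Hochberg adjustment over 1030 clones, 0 of 5 passed in the turned reading (smallest adjusted p = 0.743), where 0.0971% of all clones passed. Under the deposited one 0 of 5 passed as well (smallest limma adjusted p = 0.474), where 0.777% of all clones passed. An unadjusted limma p under 0.05 was reached by 0 of 5 under each reading, against 6.89% of all clones in the turned reading and 14.1% as deposited. A SAM-type statistic also called 0 of 5 under both, and 2 of the 1030 clones under each. The median of the 5 means was 0.12 in the turned reading, beside -0.0094 over all tested clones, and 0.015 as deposited, beside 0.050. The heads were measured in bulk, so fewer cells of a type and less RNA per cell cannot be told apart. Without centring, all 5 passed as higher in the deposited reading, where 72.3% of all tested clones passed in either direction, and 0 of 5 passed in the turned reading, where 0% did.

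**Figure D1:**
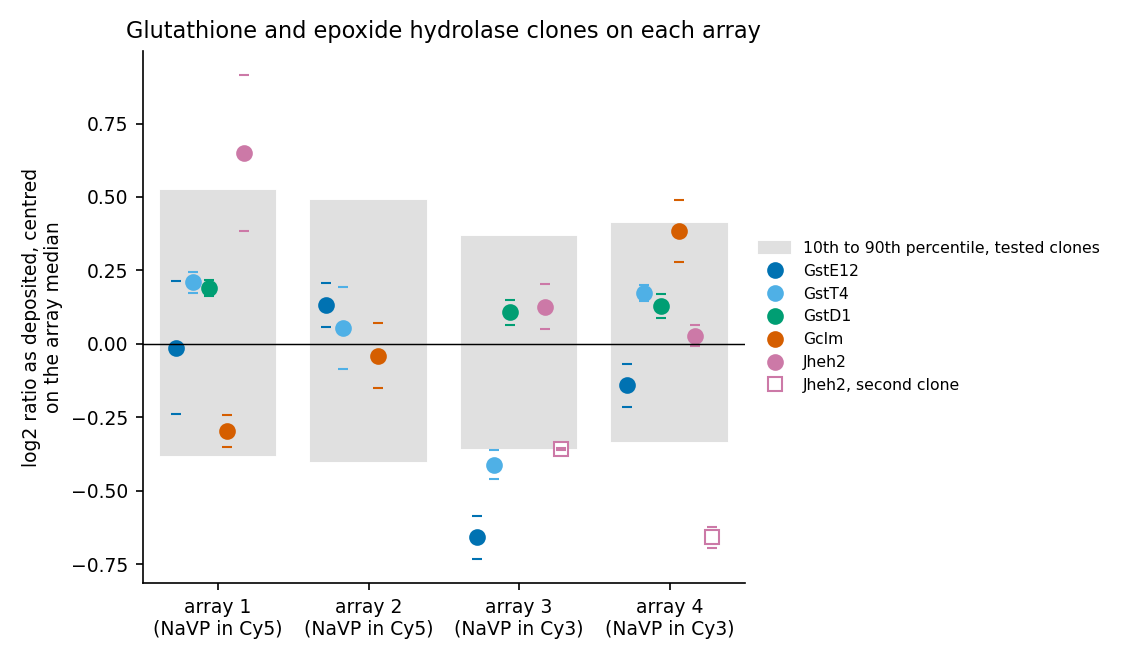
Centred log2 ratio as deposited (vertical axis) of each member clone on the 4 arrays (horizontal axis). Filled points are the mean of the 2 spots of a clone, open squares the second Jheh2 clone, dashes the single spots, and grey boxes the 10th to 90th percentile of the tested clones on that array. GstE12 and GstT4 stand below the box on array 3 (-0.66 and -0.41), the first Jheh2 clone stands above it on array 1 (0.65), and the second Jheh2 clone is at -0.66 on array 4.

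Of the 3 transferases tested, GstE12 had the mean farthest from 0 in both readings. It encodes a transferase of the Epsilon class, the insect class best known from insecticide metabolism, and carries NCBI gene number 37960. Its centred log2 ratios as deposited were -0.0125, 0.13, -0.66 and -0.14 on arrays 1 to 4. Array 3 stood apart as low: 2.22% of the 944 tested clones listed there had a lower ratio, while arrays 1, 2 and 4 lay within 0.15 of 0. Its 2 spots on array 3 were 0.15 apart, so that the low value was present in both. The mean was 0.23 ± 0.29 (SD, n = 4) in the turned reading, a 1.17-fold ratio of NaVP to normal food, with 3 of 4 arrays above 0. As deposited it was -0.17 ± 0.34 (SD, n = 4), with 3 of 4 arrays below 0. The limma adjusted p was 0.743 in the turned reading and 0.626 as deposited, and the exact two-sided sign-flip test over the 4 arrays gave p = 0.25 and 0.375. That test cannot pass with 4 arrays, since at best 2 of the 16 sign patterns are as extreme as the data. The 95% limma interval of the turned mean ran from -0.087 to 0.55, that is from 0.942-fold to 1.46-fold. Without array 3 the turned mean was 0.087 and the mean as deposited -0.0071.

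GstT4 encodes a transferase of the Theta class (NCBI gene 32299). Its ratios as deposited were 0.21, 0.053, -0.41 and 0.17 on arrays 1 to 4. As for GstE12, array 3 was its lowest value: 7.84% of tested clones were lower there. The swap arrays, which share a dye orientation, differed by 0.52 for GstE12 and 0.58 for GstT4, and 86.1% and 89.7% of the 935 tested clones on both had a smaller gap. The mean of GstT4 was 0.12 ± 0.25 (SD, n = 4) in the turned reading, 1.09-fold, with 3 of 4 arrays above 0 (limma adjusted p = 0.873). As deposited the mean was 0.0062 ± 0.29 (SD, n = 4; limma adjusted p = 0.990). The 95% limma interval reached from -0.18 to 0.43 in the turned reading and from -0.29 to 0.30 as deposited, so a ratio above 1.34-fold lay outside both. The exact two-sided sign-flip p was 0.375 in the turned reading and 1 as deposited. The turned mean was 0.029 without array 3 and 0.22 without array 4, and the mean as deposited was 0.15 without array 3 and below 0 without any other single array. Of all member pairs, GstE12 and GstT4 were the closest over the arrays, with a root mean square difference of 0.23. Over all pairs of the 453 clones on 4 arrays the median was 0.40 and the 10th percentile 0.21, so closer pairs were common. The other member pairs shared only 2 or 3 arrays, and GstD1 and Jheh2 were 0.27 apart over 3.

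GstD1 is the Delta-class transferase that dechlorinates DDT, and its promoter is widely used in fly reporters of oxidative stress. It had NCBI gene number 41503 and the steadiest ratios of the 5 as deposited: 0.19, 0.11 and 0.13 on arrays 1, 3 and 4, with none listed on array 2. All 3 lay above 0 and close to the middle of the tested clones, between the 56.0th and 63.7th percentile of each array. The mean as deposited was 0.14 ± 0.043 (SD, n = 3), 1.10-fold, and 2.23% of tested clones had a smaller SD. When arrays were centred on the clones with all 4 values instead, that mean was 0.047. It did not pass (limma adjusted p = 0.673), and 34% of the 577 clones on 3 arrays kept 1 sign in this reading. In the turned reading the values had opposite signs in the 2 dye orientations and the mean was -0.015 ± 0.18 (SD, n = 3; limma adjusted p = 0.994). The 95% limma intervals ended at 0.33 in the turned reading and 0.45 as deposited, 1.25-fold and 1.36-fold. The exact two-sided sign-flip test of 3 arrays cannot go below p = 0.25, the value it gave as deposited. GstD1 lies in a cluster of Delta-class genes, next to GstD9 and GstD2, and sequences of this class are alike enough that a cDNA clone may also bind transcripts of a neighbour. The GstD9 clone had ratios on arrays 1 and 3, at 0.20 and -0.040, where GstD1 had 0.19 and 0.11.

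Gclm, the modifier subunit that raises the activity of glutamate-cysteine ligase (NCBI gene 248194), had the lowest mean in the turned reading. Its ratios as deposited were -0.30, -0.041 and 0.38 on arrays 1, 2 and 4, with none listed on array 3. Both Cy5 arrays lay below 0 and the Cy3 array above it, so that in the turned reading all 3 values were below 0. Of the 577 clones on 3 arrays, 28.1% kept 1 sign in this reading. The turned mean was -0.24 ± 0.18 (SD, n = 3), 0.847-fold, with a 95% limma interval from -0.58 to 0.10 (limma adjusted p = 0.749; exact two-sided sign-flip p = 0.25). As deposited the mean was 0.015 ± 0.34 (SD, n = 3; limma adjusted p = 0.980). In this clone the Cy3 orientation rests on array 4 alone. The catalytic subunit could not be set beside it, as no clone on the array carries Gclc as its single gene symbol.

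Jheh2 encodes a microsomal epoxide hydrolase of the juvenile hormone pathway (NCBI gene 37181) and is represented by 2 clones. The clone on 3 arrays had ratios of 0.65, 0.13 and 0.028 on arrays 1, 3 and 4. Array 1 was the high value: 4.95% of the 1011 tested clones listed there were higher, and its 2 spots differed by 0.53, more than in 85.8% of spot pairs of that array. The mean as deposited was 0.27 ± 0.33 (SD, n = 3), 1.20-fold, with 3 of 3 arrays above 0 (limma adjusted p = 0.474). In the turned reading it was 0.16 ± 0.42 (SD, n = 3; limma adjusted p = 0.874), and array 1 alone lay above 0. Without array 1 the mean was -0.077 in the turned reading and 0.077 as deposited.

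The second Jheh2 clone gave ratios of -0.36 and -0.66 on arrays 3 and 4, where the first gave 0.13 and 0.028. The first clone was thus higher by 0.49 and 0.69 on the same hybridisations, a mean gap of 0.59. Among the 26 pairs of clones that share a gene and have ratios on both of these arrays, the median gap was 0.25, and 5 pairs (19.2%) had a larger gap than Jheh2. The annotation used here does not say which part of the transcript either clone covers. In a test that admitted clones on 2 arrays, the second clone had a mean of 0.51 ± 0.21 in the turned reading and -0.51 ± 0.21 as deposited (SD, n = 2). It did not pass in either reading (limma adjusted p = 0.793 and 0.267), where 0% and 1.48% of the 1621 clones passed. Its unadjusted limma p was 0.043 in the turned reading and 0.023 as deposited, and 5.92% and 13.7% of the 1621 clones had one under 0.05. Both readings hold the same ratios of this clone with the sign exchanged, so its p-values differ only through the other clones fitted. Both of its arrays carried NaVP in Cy3, so treatment and dye cannot be told apart for it. No clone on the array carries Jheh1 or Jheh3, the genes on either side of Jheh2, as its single gene symbol.

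**Figure D2:**
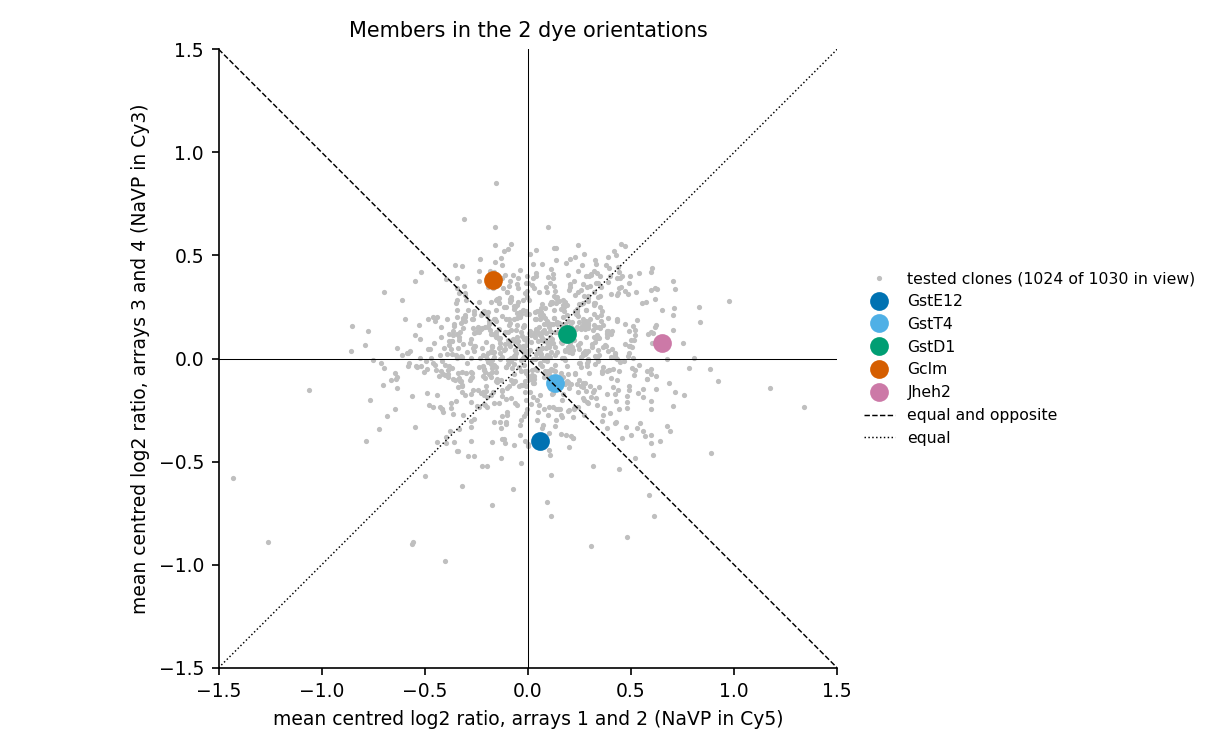
Mean centred log2 ratio on arrays 1 and 2 (horizontal axis, NaVP in Cy5) against that on arrays 3 and 4 (vertical axis, NaVP in Cy3) for 1024 of the 1030 tested clones (grey) and the 5 members (coloured). Points on the dashed line have equal and opposite ratios in the 2 dye orientations, points on the dotted line equal ones. GstT4 lies by the dashed line (0.13 and -0.12), GstD1 near the dotted one (0.19 and 0.12), and Jheh2 far to the right (0.65 and 0.077). A clone on 3 arrays has a single array in 1 orientation. That is array 1 for GstD1 and Jheh2 and array 4 for Gclm.

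The dye swap separates a component that turns with the labelling from one that stays with the dye. The orientation means on arrays 1 and 2 against arrays 3 and 4 were 0.060 and -0.40 for GstE12, 0.13 and -0.12 for GstT4, and -0.17 and 0.38 for Gclm. For each of these genes the 2 orientations had opposite signs. The share of all tested clones with opposite signs was not counted, so the signs are given as values alone. GstD1 had 0.19 and 0.12 and Jheh2 had 0.65 and 0.077, the same sign in both. For GstD1 and Jheh2 the first value is array 1 alone, and for Gclm the second is array 4 alone. A limma fit with dye orientation as a second coefficient weights the orientations equally, which matters for the 3 members on 3 arrays. In that fit the turned estimate was 0.29 for Jheh2 (95% interval -0.0063 to 0.58) and 0.23 for GstE12 (-0.011 to 0.47). It was 0.12 for GstT4 (-0.12 to 0.37), 0.036 for GstD1 (-0.26 to 0.33) and -0.28 for Gclm (-0.57 to 0.017). Of the 5, 0 passed (smallest limma adjusted p = 0.332), where 3.11% of all clones passed, and 0 had an unadjusted p under 0.05, as 15.5% of all clones did. As deposited the estimates ran from -0.17 for GstE12 to 0.36 for Jheh2. Here too 0 of 5 passed (smallest limma adjusted p = 0.123), where 5.73% of all clones did. An unadjusted limma p under 0.05 was reached by 1 of the 5, Jheh2, and by 20.7% of all clones. Most of the weight in these intervals is a spread shared by all clones (76.4 prior degrees of freedom). The Cy5 side of the Jheh2 estimate is array 1, where its 2 spots differed by 0.53. Without array 1 its mean as deposited was 0.077, and the second Jheh2 clone had a mean of -0.51 as deposited on arrays 3 and 4.

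**Figure D3:**
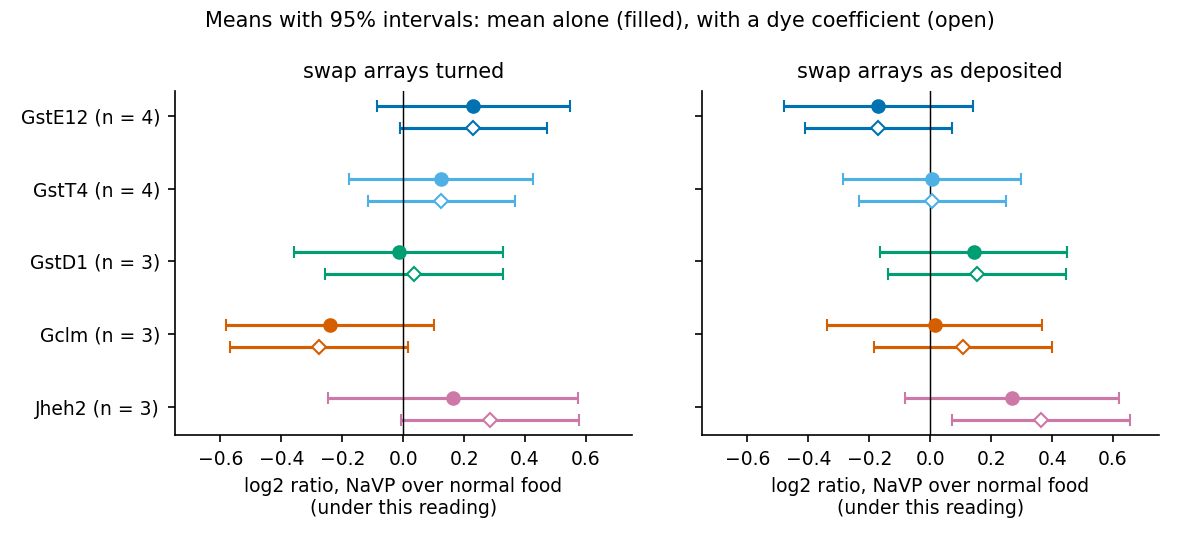
Mean log2 ratio of NaVP over normal food (horizontal axis) for each member (rows), with 95% limma intervals, in the turned reading (left) and the deposited reading (right). Filled circles are the fit of the mean alone and open diamonds the fit with a dye coefficient. Of the 20 intervals, 19 hold 0, the exception being the open one of Jheh2 in the right panel (0.071 to 0.66). Its Cy5 orientation rests on array 1 alone.

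By a rule of root mean square difference over the same arrays, the clones of named genes with ratios most like those of each enzyme were these. For GstE12 they were the deubiquitinase gene Usp14 (0.11), the histone chaperone gene Nap1 (0.16) and CG8229 (0.16), among 223 clones of other named genes on 4 arrays whose median distance was 0.44. For GstT4 they were GatA (0.059), the vacuolar proton pump subunit VhaSFD (0.11) and lost (0.11), with a median of 0.34. GstD1 had Clc (0.016), Smr (0.036) and Taf3 (0.040) nearest over arrays 1, 3 and 4, among 496 clones with a median of 0.27. Other tested Taf3 clones had -0.16 and 0.19, and 0.051 and 0.047, in the Cy5 and Cy3 orientations. Gclm had yps (0.036), aqz (0.10) and dlg1 (0.13) nearest over arrays 1, 2 and 4, among 265 clones. For Jheh2 they were CG3662 (0.069), Sfxn1-3 (0.10) and rtp (0.13). No other enzyme of the 5, and no gene of the related list described next, was among these nearest genes. However, a gene could be listed only if it had ratios on every array of the enzyme compared. Outside the 5, only Grx1 and maf-S of that list were tested, on arrays 1, 3 and 4. Neither was eligible for GstE12, GstT4 or Gclm, so the absence is not a result about the pathway. With 3 or 4 arrays a small distance says only that the ratios were close on those hybridisations.

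Most of the wider pathway had no ratio, as was so for the named genes of the array as a whole. A list of 120 related genes (conjugation, glutathione synthesis, redox defence, juvenile hormone, regulators and transport) had 66 on the array by the annotation. Of these, 20 (30.3%) had a ratio on any array and 7 (10.6%) on at least 3, beside 31.0% and 7.73% of all named genes. The 5 enzymes are in this list, and without them 15 of 61 genes (24.6%) had a ratio and 2 (3.28%) had it on at least 3 arrays. Those shares leave out 5 genes that all had a clone on at least 3 arrays. The shares of all named genes leave out none, so the 2 sets are not like for like. Among 25 genes of glutathione conjugation on the array, 6 had a ratio and GstE12, GstT4 and GstD1 had it on at least 3 arrays. Outside the 5 enzymes, the list thus added 2 tested genes. The glutaredoxin gene Grx1, which reduces glutathionylated proteins, had ratios of -0.061, -0.0115 and 0.51 on arrays 1, 3 and 4. Array 4 was its high value, and its mean was -0.19 ± 0.28 in the turned reading and 0.15 ± 0.31 as deposited (SD, n = 3 each; limma adjusted p = 0.816 and 0.705). The regulator maf-S had ratios of 0.11, 0.16 and 0.39 on the same arrays, all above 0 as deposited. Its mean was -0.15 ± 0.25 in the turned reading and 0.22 ± 0.15 as deposited (SD, n = 3 each; limma adjusted p = 0.873 and 0.515). With the members included, 0 of the 7 tested genes of the list passed under either reading. Of all tested clones, 0.0971% passed in the turned reading and 0.777% as deposited, so 0 of 7 is no result about the list.

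**Figure D4:**
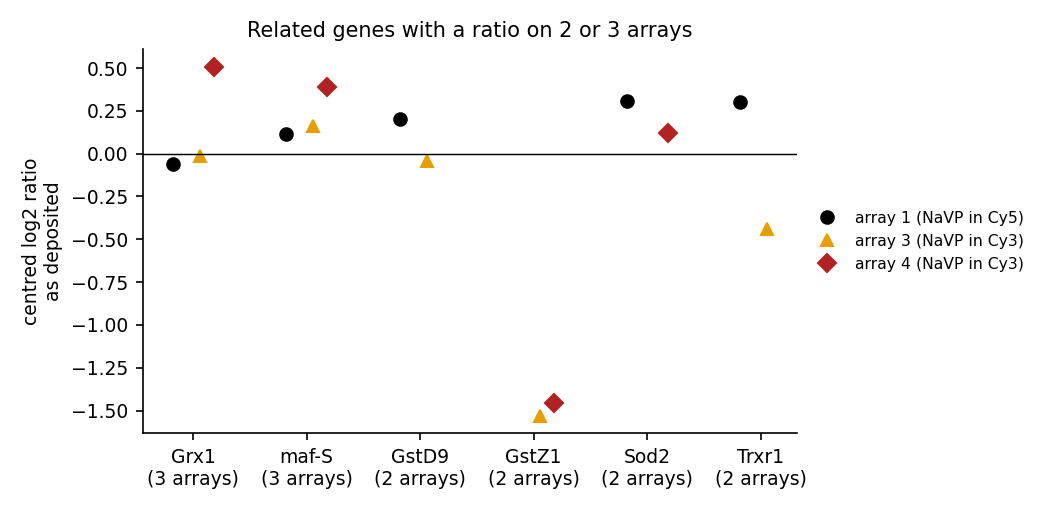
Centred log2 ratio as deposited (vertical axis) of related genes outside the 5 enzymes that had ratios on 2 or 3 arrays (horizontal axis), with 1 symbol per array. GstZ1 stands apart at -1.53 and -1.45 on arrays 3 and 4, and all other values lie between -0.44 and 0.51.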

How the data were processed

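Log ratios of 4 two-colour cDNA arrays, taken here as log2, were deposited by the authors. Per the series' design text they quantified the scans in GenePix Pro 6.0, normalised ratios in Acuity 4.0, dropped dim, saturated or uneven spots and ran SAM 2.21. The base of the logarithm is not given in the sources used here. No intensities were used here.

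Adjacent spots were averaged: all 7609 annotated pairs share their gene. Each array was centred on its median, and clones on at least 3 arrays were tested with limma 3.58.1 in R 4.3.3 (intercept only, two-sided, Benjamini-Hochberg over 1030 clones, threshold 0.05), after a run on simulated data. Prior degrees of freedom were 7.54 in the turned reading and 9.87 in the deposited reading. Symbols came from a platform annotation, updated through NCBI gene IDs to Release 6. No coordinates are printed because no build is named for the clones. The members and gene lists were chosen with earlier results of these data known. The text names every member, the 3 nearest named genes of each, and every related gene on at least 3 arrays. Nothing states the relation of the pools beyond separate vials, so p-values measure the spread between these arrays.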

Additional observations from a re-analysis of the deposited data

How the results depend on the processing

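No paired analysis was possible because the 4 arrays form a single group of ratios, each already a pair of pools. Centring within blocks was not run because the files give no blocks. The 13 alternatives per reading gave 124 member means, of which 64 equal the reported mean because the alternative leaves those values as they are. Of the 60 that differ, 13 changed sign, 4 passed the threshold with their sign kept, and 43 kept their sign and did not pass. Of those with their sign kept, 24 moved by over 1.5 times. In the turned reading, 1 clone of all passed; 0 did without centring (6 at an unadjusted limma p under 0.05), 0 with clones on at least 2 arrays (96), 0 with clones on all 4 arrays (46), 32 with the dye coefficient, 2 by the SAM-type statistic, 5 genes with clones averaged, and 1 to 12 with an array left out. In the deposited reading, 8 passed; 745 did without centring, 24 with clones on at least 2 arrays, 1 on all 4, 59 with the dye coefficient, 2 by the SAM-type statistic, and 3 to 19 with an array left out. Of the members, 5 passed without centring as deposited and 0 under every other alternative run. Without centring the sign turned for GstD1 (0.060) and Gclm (0.36) in the turned reading and for GstE12 (0.54) as deposited. Centring on the clones with all 4 values, an alternative chosen after seeing the data, turned GstT4 (-0.085) and Gclm (-0.0945) as deposited and moved GstD1 (0.047), GstE12 (-0.26) and Jheh2 (0.17) by over 1.5 times, and the dye coefficient turned GstD1 (0.036, turned reading). With an array left out, means crossed 0 for GstD1 (-0.12 to 0.042) and Jheh2 (-0.077 to 0.31) in the turned reading, and for GstT4 (-0.061 to 0.15) and Gclm (-0.17 to 0.17) as deposited. They kept their sign for GstE12 (0.087 to 0.31), GstT4 (0.029 to 0.22) and Gclm (-0.34 to -0.17) in the turned reading, and for GstE12 (-0.27 to -0.0071), GstD1 (0.12 to 0.16) and Jheh2 (0.077 to 0.39) as deposited. Those fits admitted clones with 2 values. The causes of these shifts were not tested. The array medians that centring removed lay 0.24 to 1.05 above 0, and without intensities the signal behind a ratio is unknown.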

Other observations

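GstZ1, a Zeta-class transferase whose relatives isomerise maleylacetoacetate in tyrosine breakdown, had the ratios farthest from 0 among the glutathione transferases with a value, and is named here after its values were seen. Its centred log2 ratios as deposited were -1.53 and -1.45 on arrays 3 and 4, that is 0.346-fold and 0.365-fold, with none listed on arrays 1 and 2. With clones on at least 2 arrays tested, it passed as lower in the deposited reading (-1.49 ± 0.054, SD, n = 2; limma adjusted p = 0.00172), as did 1.48% of 1621 clones. In the turned reading the mean was 1.49 and did not pass (limma adjusted p = 0.301). Both readings hold the same GstZ1 ratios with the sign exchanged. The p-values therefore differ only through the other clones, whose spread limma pools and over which it adjusts. Both arrays carried NaVP in Cy3, so treatment and dye cannot be told apart. GstZ2, the next gene of the class, had a single ratio, 0.22 on array 3.

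Other related genes had ratios on 1 or 2 arrays and are given as values, chosen after they were seen. The thioredoxin reductase gene Trxr1, which takes the place of glutathione reductase in flies, had 0.30 and -0.44 on arrays 1 and 3, opposite signs in opposite orientations. The mitochondrial superoxide dismutase gene Sod2 had 0.31 and 0.12 on arrays 1 and 4. On array 1 alone, the glucuronosyltransferase family gene Ugt37B1 had 1.87, and the gamma-glutamyl transpeptidase gene Ggt-1, of glutathione breakdown, had -1.67. On array 3 alone, Gtpx, a glutathione peroxidase homologue, had -1.095. None of these 3 has a second array to set beside it.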
